A study of Mus musculus with 15 samples.

Results

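HSF1 peaks were collected at 9 genes of glucose transport and glycolysis, out of 21887 protein-coding genes. The genes are Slc2a1 and Slc2a4 (transporters), Hk1 and Hk2 (hexokinases), Pfkp and Pfkfb3 (control of the phosphofructokinase step), and Pgk1, Pkm and Ldha (later enzymes). A peak belonged to a gene when it overlapped the gene span or the 5000 bp on either side in GRCm38 (mm10). This gave 91 of 54878 peaks, and peaks of different libraries that overlapped were joined into 27 of 18176 regions. Regions are numbered within a gene by increasing coordinate.

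Glucose enters brown adipocytes through membrane transporters and is broken down by glycolysis, the cytosolic pathway that turns glucose into pyruvate and lactate. Brown adipose tissue (BAT) is a heat-producing fat, and its glucose uptake is known to rise in the cold. Heat shock factor 1 (HSF1) is a transcription factor best known for switching on chaperone genes, and it recognises heat shock elements, which are inverted repeats of the bases GAA. TXNIP, the protein removed in the knockout mice, is an arrestin that restrains glucose uptake by glucose transporters.

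The study mapped HSF1 by ChIP-seq in mouse BAT with 10 ChIP libraries, 2 in each of 5 groups. Wild type (WT) mice were kept at room temperature, exposed to cold for 40 min (pair A) or exposed to cold for 4 h. TXNIP knockout (KO) mice were exposed to cold for 40 min, and a further WT pair at 40 min of cold (pair B) is their control here. The labels give no strain, age, sex or knockout allele, do not say whether the knockout is confined to a tissue, and do not say that the libraries of a group come from separate animals. They also do not say whether pair B comes from other animals than pair A. Input libraries were not analysed here. The lists held 919 and 1269 peaks at room temperature, 2287 and 1670 in pair A, 123 and 351 at 4 h, 10399 and 10633 in the KO, and 12644 and 14583 in pair B. Each list gives a fold enrichment, the authors' ratio of signal at the summit to local background, and peaks were ranked within a list by the authors' −log10 p. Depth is unknown without read counts, and folds of different libraries are descriptions and not levels that can be tested against each other. Within 5000 bp of Txnip, 4 and 6 peaks were called in KO libraries and 4 and 5 in pair B, against 0 to 2 in the other 6 libraries. Peaks overlapping the gene itself numbered 2 and 4 in the KO against 2 and 3 in pair B, and summits inside it numbered 0 and 2 in the KO (highest fold 4.15) against 0 and 1 in pair B (fold 3.77). The deleted part of Txnip is not given, so these peaks do not check the genotype. Of 9 brown adipocyte markers, 5 in the KO (Ucp1 and Cidea among them) and 6 in pair B had a peak of both replicates, while Ppargc1a alone did at room temperature and in pair A, and none did at 4 h. Of 9 skeletal muscle markers, whose tissue also depends on Slc2a4 and Hk2, 1 in the KO (Myl1) and 2 in pair B (Tnnt3 and Myl1) had one, and none did in the other 3 groups. Of 5 endothelial markers, Pecam1 had a peak of both replicates in each group except 4 h, and none of 5 leukocyte markers had one in any group. For scale, 21.0% of all protein-coding genes had a peak of both replicates in the KO and 26.6% in pair B. The shares were 2.95% at room temperature, 4.97% in pair A and 0.466% at 4 h. Such peaks show where HSF1 was called, not which cells the chromatin came from, and the part of other cell types in the results was not tested.

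Promoter sequences of these genes were set beside that of a strong HSF1 site. The RefSeq promoters (GRCm38.p6) run from 250 bases before to 50 bases after each listed start, and 12 of them belonged to 8 of the 9 genes, Slc2a4 having no entry. A pair of heat shock units, GAANNTTC or TTCNNGAA (each reads the same on both strands, and pairs may overlap), was found in 0 of these 12 promoters, against 15.1% of all 32851 promoters. The form with 3 alternating units at the same spacing, which contains the pair, was likewise in 0 of 12, against 0.603% of all. Peaks of both replicates overlapped none of the 12 promoters at room temperature or in pair A, 1 at 4 h (Pgk1), 3 in the KO and 3 in pair B (Pgk1, the first Pkm promoter and the downstream Pfkfb3 promoter in both groups). All promoters were overlapped at shares of 0.740% at room temperature, 1.08% in pair A, 0.174% at 4 h, 6.91% in the KO and 9.74% in pair B. Among promoters overlapped by peaks of both replicates, the pair was present in 34.6% at room temperature, 32.9% in pair A, 33.3% at 4 h, 20.0% in the KO and 16.4% in pair B. Absence of these letters says only that they are not in these windows. The main sites of Slc2a1, Slc2a4 and Pfkfb3 lay outside these windows, and their sequence was not searched. The promoter of Hspe1, the cochaperonin gene whose peak ranked first or second in all 10 lists, is shown for scale with its 3 overlapping pairs in capitals. Peak summits fell inside the Pgk1 promoter and the downstream Pfkfb3 promoter, which are shown, and there the capitals mark 21 bases centred on the median of those summits. The strongest Pgk1 peak (4 h replicate 1, fold 31.7) had its summit upstream of the printed window, so it did not enter that median. Summits also fell inside an Ldha promoter (2 libraries) and the second Pkm promoter (1 library), which are not shown.
Hspe1 promoter (chr1:55087898-55088197, plus strand): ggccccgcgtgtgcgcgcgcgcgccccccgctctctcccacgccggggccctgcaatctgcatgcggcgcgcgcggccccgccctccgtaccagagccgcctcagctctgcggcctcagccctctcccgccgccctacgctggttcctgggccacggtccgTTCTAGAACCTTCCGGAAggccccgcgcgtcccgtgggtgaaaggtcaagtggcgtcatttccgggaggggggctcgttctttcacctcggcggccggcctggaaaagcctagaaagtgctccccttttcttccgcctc
Pgk1 promoter (chrX:106186850-106187149, plus strand): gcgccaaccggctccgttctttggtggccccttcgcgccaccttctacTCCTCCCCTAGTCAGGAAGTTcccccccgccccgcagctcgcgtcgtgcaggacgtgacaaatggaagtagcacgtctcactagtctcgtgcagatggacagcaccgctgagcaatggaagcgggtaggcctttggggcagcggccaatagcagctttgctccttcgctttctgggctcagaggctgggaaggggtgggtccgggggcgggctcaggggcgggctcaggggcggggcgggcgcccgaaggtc
Pfkfb3 downstream promoter (chr2:11502041-11502340, minus strand): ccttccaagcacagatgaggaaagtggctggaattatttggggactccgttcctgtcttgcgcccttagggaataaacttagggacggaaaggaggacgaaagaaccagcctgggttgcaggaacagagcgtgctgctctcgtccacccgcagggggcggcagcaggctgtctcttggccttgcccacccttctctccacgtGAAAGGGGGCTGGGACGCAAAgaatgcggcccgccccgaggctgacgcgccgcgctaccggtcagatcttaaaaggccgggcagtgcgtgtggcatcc

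HSF1 was called at few of the 9 genes in the 3 groups with short lists and at most of them in the 2 groups with long lists. Genes with a peak of both replicates numbered 2 of 9 at room temperature (Slc2a1 and Pfkfb3), 3 in pair A (with Slc2a4 in addition), 2 at 4 h (Slc2a1 and Pgk1), 7 in the KO and 7 in pair B. Of all protein-coding genes, 2.95% were called in the same way at room temperature, 4.97% in pair A, 0.466% at 4 h, 21.0% in the KO and 26.6% in pair B. The 7 genes were the same in the KO and pair B, namely Slc2a4, Hk2, Pfkp, Pfkfb3, Pgk1, Pkm and Ldha. With the gene span alone, 5 genes were called in the KO and 6 in pair B, and the share of all genes was not computed for that window. The 9 genes were chosen with earlier results of these data known, so their shares are descriptions only. Longer genes have more room for a peak: the 9 genes had a median span of 28586 bp (5931 to 111066 bp), against 17169 bp for all protein-coding genes, and the shares were not adjusted for this. Pfkfb3 was called in 9 libraries, Pgk1 in 7, Slc2a1 and Slc2a4 in 6 each, Hk2, Pfkp, Pkm and Ldha in 4 each, and Hk1 in 1. The grid of strongest peaks shows that the genes called in 4 libraries were all called in the long lists only.

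**Figure D1:**
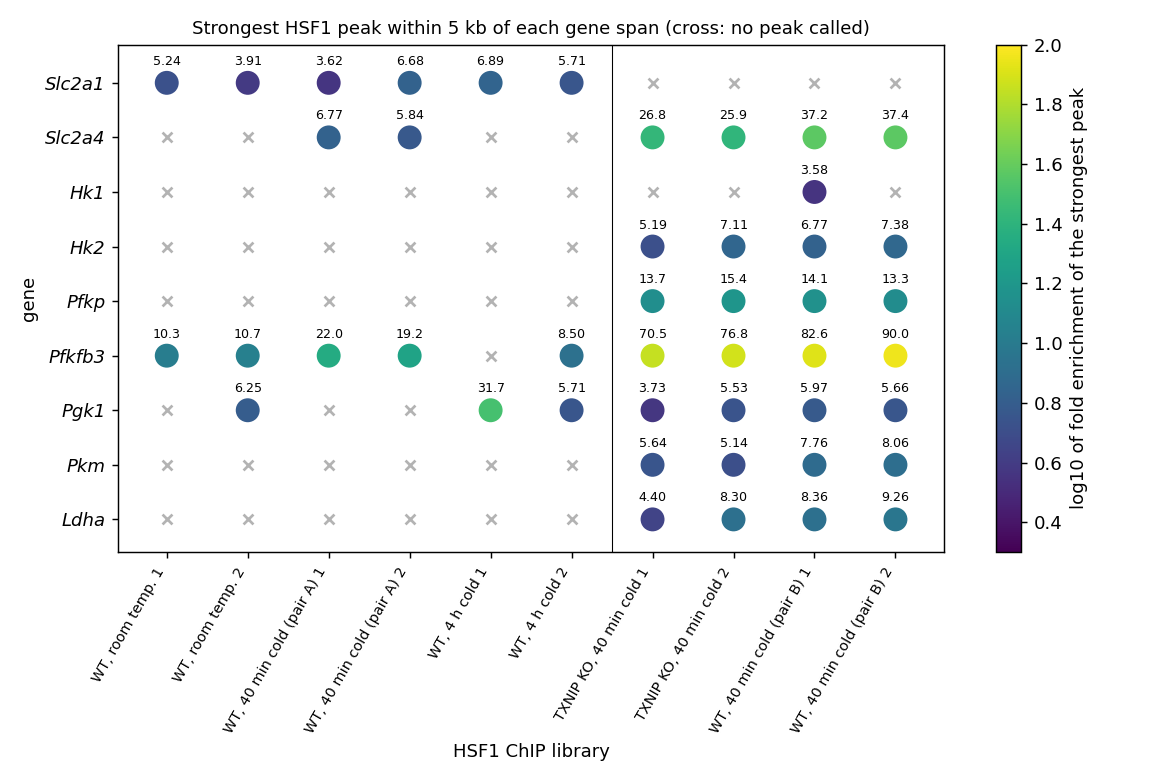
Fold enrichment of the strongest HSF1 peak within 5 kb of each gene (rows) in each of the 10 libraries (columns), with the number above each point and a cross where no peak was called. Pfkfb3 has the highest fold in each KO library and each library of pair B (70.5 to 90.0), and Slc2a1 is called only to the left of the line.

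Slc2a1 encodes GLUT1, the transporter for basal glucose uptake in many cell types. Its main region lay inside the gene (chr4:119132494-119133931), with summits 24449 to 24765 bp downstream of the listed start and 3820 to 4136 bp before the end of the gene. Folds were 5.24 and 3.91 at room temperature, 3.62 and 6.68 in pair A, and 6.89 and 5.71 at 4 h. The region was thus called in all 6 of these libraries at folds that overlapped between the groups. The peaks of the room temperature replicates did not overlap each other (119133347 to 119133704 in replicate 1 and 119132658 to 119133251 in replicate 2). They count as one region only through peaks of other libraries that overlapped both. It ranked low in the lists, at 724 of 919 and 1194 of 1269 at room temperature, 2216 of 2287 and 1020 of 1670 in pair A, and 68 of 123 and 294 of 351 at 4 h. No peak was called at Slc2a1 in the KO or pair B, although these lists are the longest. Of 96 regions called in all 6 libraries of room temperature, pair A and 4 h, this was the only one (1.04%) that none of the other 4 libraries called. Some of these calls were weak, with −log10 q of 4.05 in room temperature replicate 2 and 2.54 in replicate 1 of pair A. With −log10 q of at least 5 the site was thus not called in all 6 libraries. A further region, called only in 4 h replicate 2 (fold 4.28), lay 1552 bp before the end of the gene. No peak lay at the listed start of Slc2a1 in any library.

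Slc2a4 encodes GLUT4, the insulin-responsive transporter of fat and muscle. Its main region (region 3, chr11:69943568-69946050) lay inside the gene, with the strongest summits 2243 to 2390 bp from the nearer end of the gene span. Folds were 26.8 and 25.9 in the KO, against 37.2 and 37.4 in pair B, and 6.77 and 5.84 in pair A. No peak was called at room temperature or at 4 h. Both libraries of pair A thus called the region and neither room temperature nor 4 h library did. In the long lists the peak was among the stronger ones, ranking 917 of 10399 and 894 of 10633 in the KO and 708 of 12644 and 768 of 14583 in pair B, while it ranked 1211 of 2287 and 1198 of 1670 in pair A. The other regions were weaker, with folds of 2.92 to 6.37, and were called only in the long lists. Region 1 lay inside the neighbouring gene Ybx2, with folds of 4.76 and 4.35 in the KO against 6.37 and 5.61 in pair B. Region 4 spanned the other end of Slc2a4 and joined peaks with summits inside and outside the gene. Peaks with summits outside it had folds of 4.19 and 4.94 in the KO against 4.46 and 4.36 in pair B. The strand of Slc2a4 is not in the tables used here, so its start could not be told from its end.

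Hexokinases trap glucose in the cell by phosphorylating it. Hk2, the isoform typical of insulin-sensitive tissues, had a peak of both replicates only in the long lists, in region 5 (chr6:82769883-82770809), 4213 to 4241 bp downstream of its listed start. Folds there were 4.56 and 7.11 in the KO against 6.77 and 7.38 in pair B, and the groups overlapped. The summits of the 4 libraries lay within 28 bp of each other. The other 4 Hk2 regions were each called in a single library, with folds of 3.35 to 5.19. Hk1, the broadly expressed isoform, had 1 peak, in replicate 1 of pair B, with a fold of 3.58, a rank of 11089 of 12644 and a summit 88 bp downstream of its second listed start. At Pfkp, which encodes the platelet-type phosphofructokinase, region 4 (chr13:6638757-6639895) lay 9320 to 9560 bp downstream of the listed start. Its folds were 13.7 and 15.4 in the KO against 14.1 and 13.3 in pair B, and no other library called a peak at Pfkp. The remaining Pfkp regions had folds of 2.74 to 5.14.

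Pfkfb3 encodes the enzyme that makes fructose 2,6-bisphosphate, the strongest allosteric activator of phosphofructokinase. It carried 31 of the 91 peaks, in 6 regions, and its strongest site had the highest fold of any of the 9 genes in each of the 9 libraries that called it. That site (region 4, chr2:11514681-11516898) lay in the gene body between the 2 listed starts, 13494 to 13533 bp upstream of the downstream start and 38448 to 38487 bp inside the upstream end of the gene. The gene table gives no exons, so whether it is intronic was not determined. Its 9 summits fell within 39 bp of each other, from 11515584 to 11515623. Folds were 10.3 and 10.7 at room temperature, 22.0 and 19.2 in pair A, 8.50 in 4 h replicate 2 with no call in replicate 1, 70.5 and 76.8 in the KO, and 82.6 and 90.0 in pair B. The peak ranked 246 of 919 and 282 of 1269 at room temperature, 200 of 2287 and 192 of 1670 in pair A, 137 of 351 at 4 h, 197 of 10399 and 160 of 10633 in the KO, and 197 of 12644 and 180 of 14583 in pair B. For scale, the Hspe1 peak had folds of 1148 and 1109 in the KO against 1296 and 1210 in pair B, and 194 and 193 (room temperature).

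The other 5 regions of Pfkfb3 were called in all 4 long lists and nowhere by both libraries of a short list. Regions 2 and 6 were also called in replicate 1 of pair A, with folds of 4.11 and 3.60. In region 2, 1635 to 1697 bp upstream of the downstream start, folds were 8.51 and 11.5 in the KO against 7.44 and 14.8 in pair B. In region 3 they were 7.75 and 8.84 in the KO against 8.96 and 13.9 in pair B, and in region 5 they were 8.81 and 10.7 in the KO against 8.36 and 12.0 in pair B. Region 1 covered the downstream start itself, with summits within 88 bp of it (the printed Pfkfb3 promoter) and low folds of 5.19 and 4.54 in the KO against 3.23 and 4.38 in pair B. No peak overlapped the upstream Pfkfb3 promoter in any library. The map of Pfkfb3 shows the strong central site flanked by weaker sites on both sides.

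**Figure D2:**
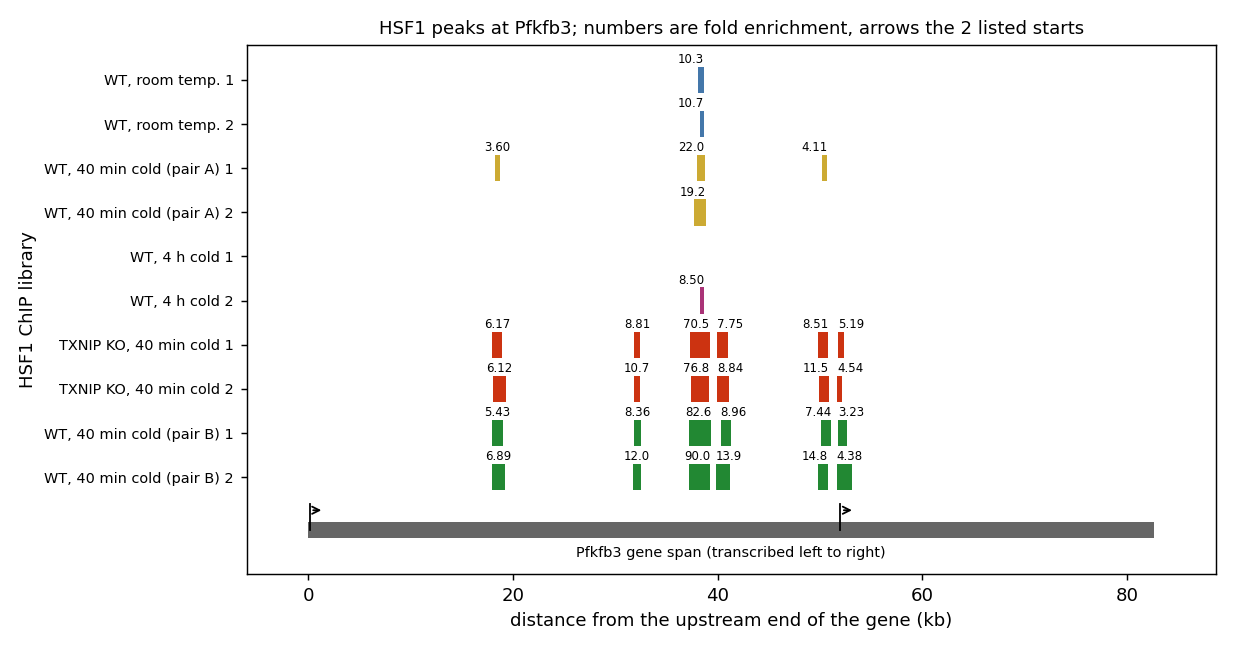
HSF1 peaks along Pfkfb3, with distance from the upstream end of the gene in kb on the x axis, 1 row per library, bars for the extent of each peak and its fold above it. Arrows mark the 2 listed starts, and the central peak is called in 9 of 10 libraries with folds of 8.50 to 90.0.

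Genes across the genome with the calls of Pfkfb3 in all 10 libraries numbered 138. Among these, the 5 whose strongest peak stood closest to that of Pfkfb3 in percent rank were Capn2, Parm1, Cflar, Clstn3 and Anp32e. Their mean absolute differences over the 9 libraries with calls were 1.38, 1.44, 1.59, 1.75 and 2.49 percentage points of the list. These values describe likeness of call and rank only.

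Pgk1 encodes phosphoglycerate kinase, which forms ATP in glycolysis, and it had a single region, at its start (chrX:106186723-106187235). Summits lay 131 to 273 bp upstream of the listed start in 6 libraries and 32 bp downstream of it in 4 h replicate 2. Folds were 6.25 in room temperature replicate 2 with no call in replicate 1, none in pair A, 31.7 and 5.71 at 4 h, 3.73 and 5.53 in the KO, and 5.97 and 5.66 in pair B. Replicate 1 of 4 h stood far above all other libraries, and without it the range was 3.73 to 6.25. In that library the peak ranked 5 of 123, above the peak of Hspa8, a constitutive HSP70 gene, whose fold there was 26.4. In 4 h replicate 2 it ranked 294 of 351. Of the 10 best ranked peaks of 4 h replicate 1, 8 were called in all 10 libraries, the Pgk1 peak in 7 and a peak in Mlxipl in 2. The first-ranked peak, among these 8, had a fold of only 3.01 and no listed gene within 5000 bp.

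Pkm and Ldha, which encode pyruvate kinase and a lactate dehydrogenase subunit, were called in the long lists only. Pkm region 1 (chr9:59655713-59656743) had summits 326 and 431 bp upstream of the first listed start in the KO, against 535 and 527 bp in pair B. Its folds were 5.64 and 5.14 in the KO against 7.76 and 8.06 in pair B, with both KO values below both of pair B. The main Ldha region (region 1, chr7:46838867-46839841) lay outside the gene span, 6517 to 6604 bp upstream of the nearest listed start. Folds were 4.40 and 8.30 in the KO against 8.36 and 9.26 in pair B, and KO replicate 1 was the low one. Placed by fold among the 7131 regions called in all 4 libraries, the Ldha site stood at 6250 and 3198 in the KO against 3576 and 3420 in pair B, and the groups overlapped. At the Ldha start itself a peak was called in KO replicate 1 (fold 4.56) and in replicate 2 of pair B (fold 3.77), with summits 57 and 199 bp upstream.

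**Figure D3:**
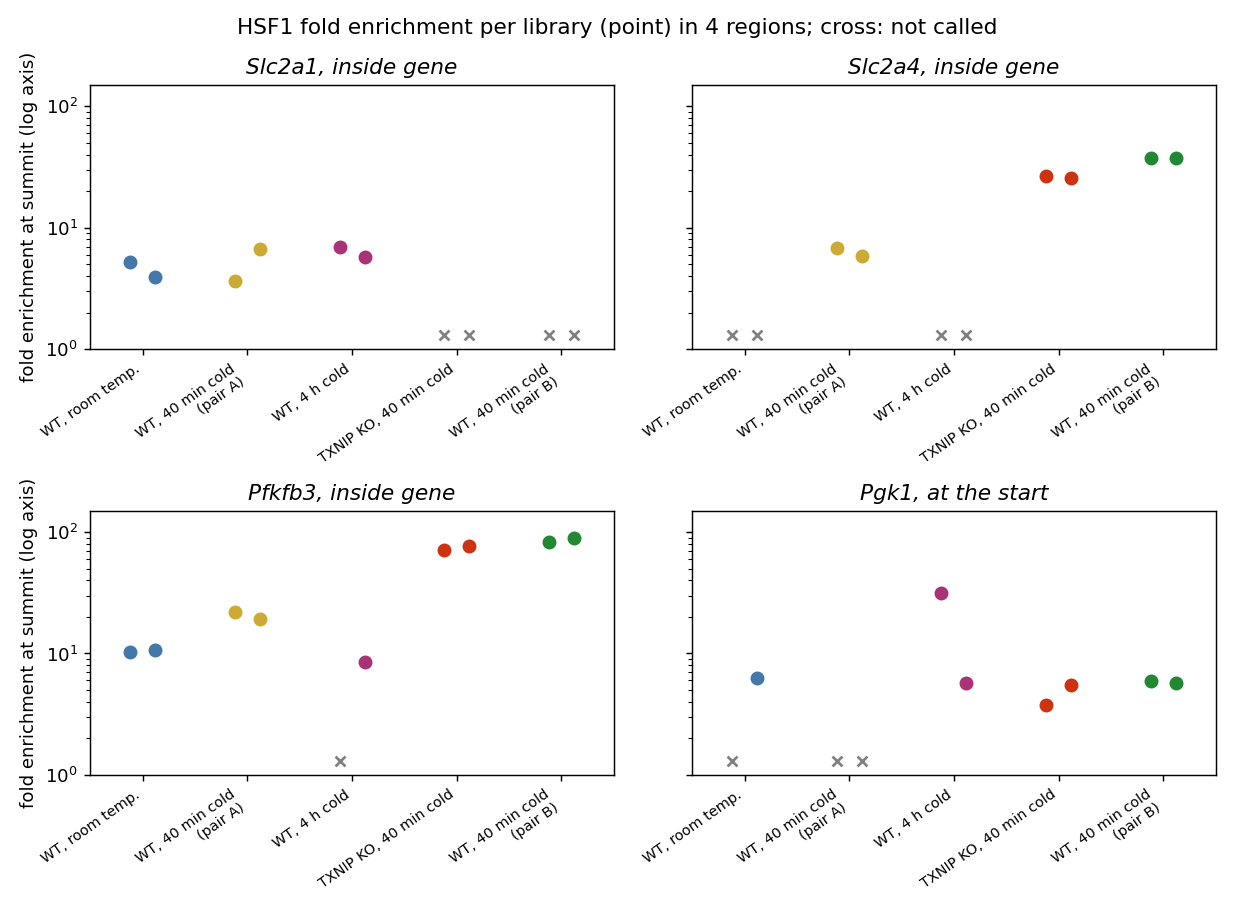
Fold enrichment on a log axis in 4 regions, with 1 point per library in each group of 2 and a cross at the bottom where the region was not called. Slc2a4 is called at 40 min and not at room temperature or 4 h, and the Pgk1 point of 31.7 belongs to replicate 1 of 4 h.

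At 40 min of cold, pair A differed from room temperature at 1 of the 6 regions (16.7%) called in these 4 libraries. The Slc2a4 region had a peak in each library of pair A and none at room temperature (gained), and no region was called the other way (lost). Across the genome 15.9% of regions were gained and 0.199% lost, so the share gained at these genes was near the background. The Slc2a1 and Pfkfb3 sites were called in all 4 libraries (2 of 6, or 33.3%), as were 29.9% of all regions. Among the 750 regions called in all 4, ordered by fold within each library, the Pfkfb3 site stood at places 192 and 182 in pair A, against 233 and 271 at room temperature. It was placed higher in both libraries of pair A, as were 25.5% of the 750 regions, while 26.3% were placed lower. The Slc2a1 site stood at places 746 and 665 in pair A, against 652 and 740 at room temperature, and the groups overlapped. With the 919 strongest peaks of each library the Slc2a4 gain was no longer seen, and without replicate 2 of pair A 3 regions were gained, Pfkfb3 regions 2 and 6 in addition. Without room temperature replicate 1, the Pgk1 region was lost.

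At 4 h of cold, none of the 4 regions called in these libraries was gained or lost against room temperature, while across the genome 0.216% of regions were gained and 37.1% lost. Without 4 h replicate 1 or without room temperature replicate 2, 1 region was gained (Slc2a1 region 2 in the first case and Pgk1 in the other), and without 4 h replicate 2 the Pfkfb3 site was lost. The Slc2a1 site was called in all 4 libraries (1 of 4, or 25.0%), as were 6.98% of all regions, and the Pfkfb3 site was called in 1 library at 4 h and in both at room temperature. Among the 97 regions called in all 4, the Slc2a1 site stood at places 55 and 92 at 4 h, against 88 and 92 at room temperature, and the groups overlapped, while 28.9% of the 97 were placed higher and 38.1% lower. Against pair A, the Pgk1 region was gained at 4 h and the Slc2a4 region was lost, out of 7 regions. Across the genome, 0.0415% of regions were gained in this comparison, the Pgk1 region being the only one of 2409, and 46.9% were lost. Counted by gene, Pgk1 was again the only one gained of 21887 (0.00457%). The same region was, however, called in both libraries of pair B, also WT at 40 min of cold, with folds of 5.97 and 5.66. It was also called in room temperature replicate 2 (fold 6.25), so it was not particular to 4 h. The Slc2a1 site was the 1 region of 7 called in all 4 libraries, as were 4.32% of all regions, and it stood at places 56 and 100 of 104 at 4 h, against 100 and 99 in pair A, where 33.7% of the 104 were placed higher and 32.7% lower. A list of 123 and 351 peaks leaves little room for calls, so a region missing at 4 h is one that was not called at an unknown depth. Neither change was seen among the 123 strongest peaks of each library. Without 4 h replicate 1 there were 2 gained regions, the other being Slc2a1 region 2. Without 4 h replicate 2 there were 2 lost regions and without replicate 2 of pair A there were 3.

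The genotype comparison asks whether HSF1 sites at these genes differ when TXNIP is absent. Most sites were called in both genotypes: of 25 regions called in the KO or pair B, 14 (56.0%) were called in all 4 libraries, against 39.3% of all regions. None was gained in the KO and 1 (4.00%) was lost, Pfkp region 2, with folds of 4.31 and 3.08 in pair B. Across the genome 1.097% of regions were gained and 7.36% lost. With peaks of −log10 q of at least 5 only, that loss was no longer seen, and without single libraries the count lost was 1 to 6 (6 without replicate 1 of pair B) and the count gained 0 to 2 (2 without KO replicate 1). Since the KO lists are shorter, regions were also placed by fold among the 7131 regions called in all 4 libraries. The main Slc2a4 site stood at places 890 and 860 in the KO, against 688 and 746 in pair B. The Pkm site stood at places 5093 and 5289 in the KO, against 3874 and 3989 in pair B. The Pfkp site stood higher in the KO, at places 1884 and 1569 in the KO, against 2049 and 2395 in pair B. The leading Pfkfb3 site did not separate the groups, at places 183 and 154 in the KO, against 189 and 179 in pair B. In all, 3 of 14 regions (21.4%) stood lower in both KO libraries and 2 (14.3%) stood higher, while 9 overlapped. Among all 7131 regions the shares were 21.6% lower and 24.0% higher, so the share lower at these genes was near the background. Set against pair A, whose lists are shorter, 10 of 19 regions (52.6%) were gained in the KO, where 43.8% of all regions were gained. The Slc2a1 site was lost in this comparison, the only one lost of 12765 regions (0.00783%). Pair B, also WT, did not call that site either, so its absence was shared by both genotypes.

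**Figure D4:**
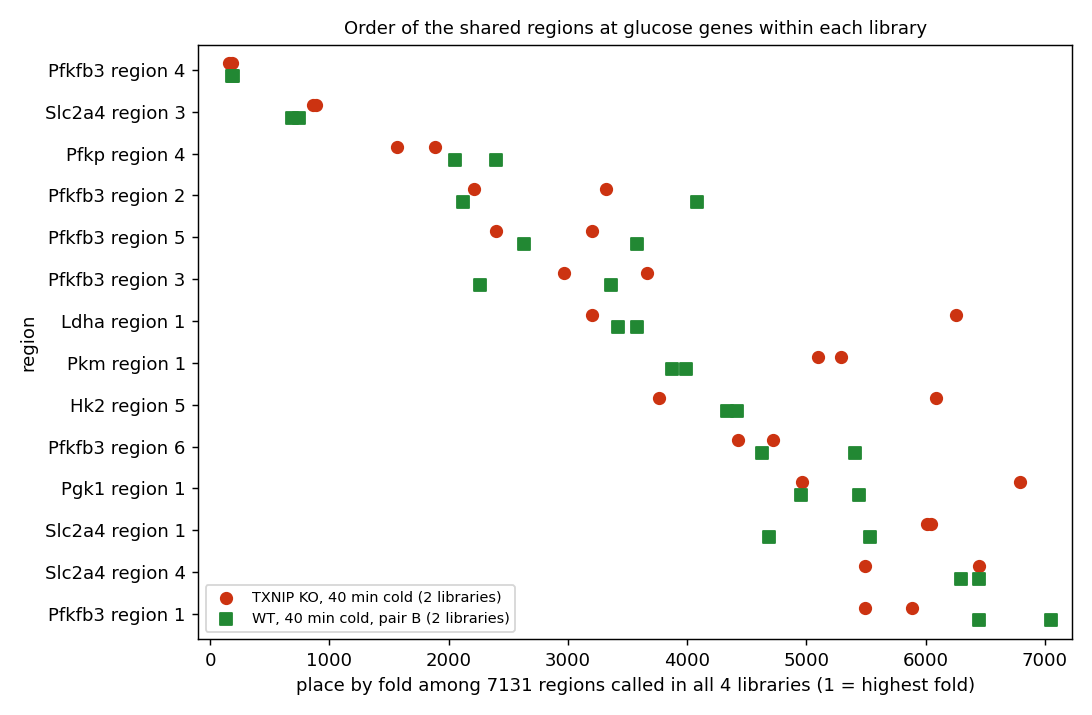
Place by fold of each region at the glucose genes among the 7131 regions called in all 4 libraries, with place 1 the highest fold. Circles are the 2 KO libraries and squares the 2 libraries of pair B, and the main Slc2a4 region (region 3) stands at 890 and 860 in the KO against 688 and 746 in pair B.

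Peaks at the 9 genes made up a small share of each list. They were 0.218% and 0.236% of peaks at room temperature, 0.219% and 0.180% in pair A, 1.63% and 1.14% at 4 h, 0.163% and 0.150% in the KO, and 0.134% and 0.151% in pair B. The 4 h shares rest on 2 and 4 peaks, with Wilson 95% intervals of 0.447% to 5.74% and 0.444% to 2.89%, which cover counting error only. Shares were compared with a two-sided exact permutation test, whose smallest possible p with 2 libraries a group is 0.333. The mean share was 1.38% ± 0.34 at 4 h against 0.227% ± 0.013 at room temperature (SD, n = 2 each), with an exact permutation p of 0.333. Against the 0.199% ± 0.028 of pair A (SD, n = 2), the 4 h share gave the same exact permutation p of 0.333. Pair A against room temperature gave an exact permutation p of 0.667. The KO share of 0.157% ± 0.009 against 0.143% ± 0.012 in pair B (SD, n = 2 each) also gave an exact permutation p of 0.667.

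HSF1 was also called at other genes of glucose metabolism, from a list of 65 further transporters, glycolytic, glycogen, pentose phosphate and pyruvate genes and their regulators. Those with a peak of both replicates numbered 3 at room temperature (4.62%), 3 in pair A (4.62%), 0 at 4 h, 24 in the KO (36.9%) and 26 in pair B (40.0%). The background shares are those given above for all protein-coding genes. With the summit of both replicates within 1000 bp of a gene end, the list counts were 0 at room temperature, 0 in pair A, 0 at 4 h, 11 in the KO and 15 in pair B. Of all genes, 1.18% passed this rule at room temperature, 1.69% in pair A, 0.265% at 4 h, 9.69% in the KO and 13.6% in pair B. Tpi1, the triose phosphate isomerase gene, had the best placed peak, whose folds were 9.30 and 10.7 (room temperature), 15.2 and 16.7 (pair A), 44.2 and 69.3 in the KO, and 67.3 and 67.1 in pair B. That peak lay 4938 bp outside Tpi1 and nearer to the gene Spsb2, at 2956 bp from it (room temperature replicate 1). H6pd, which encodes a pentose phosphate enzyme of the endoplasmic reticulum, held a peak inside the gene in 9 libraries, with folds of 45.3 and 43.5 in the KO against 38.9 and 38.6 in pair B. Pfkfb2, a paralogue of Pfkfb3, held a peak inside the gene. Its folds at room temperature were 4.53 and 4.44, and they were 16.2 and 17.0 in the KO against 26.1 and 22.8 in pair B. Pck1, Pgd, Pygb, Pfkl and Gpi1 have roles in gluconeogenesis, the pentose phosphate pathway, glycogen breakdown and glycolysis. They were called by both replicates in the KO and pair B only. The strongest Pck1 peak had folds of 16.4 and 21.1 in the KO against 15.1 and 14.6 in pair B. That of Pfkl went the other way, with 10.6 and 9.58 in the KO against 12.5 and 14.9 in pair B. Folds of the groups overlapped at Pgd, Pygb and Gpi1. At Gpi1 the strongest peak in replicate 1 of pair B (fold 5.57) lay at another site than in the KO. The glucose-sensing factor gene Mlxipl and its partner gene Mlx complete the 10 best placed genes, and Mlx was the only one of the 65 gained in pair A against room temperature, where 1.101% of all genes were gained. No list gene was lost in that comparison (0.0137% of all genes) or gained at 4 h against room temperature (0.00914%). Tpi1 and Pfkfb2 were lost at 4 h against room temperature, where 1.87% of all genes were lost, and Tpi1 and Mlx were lost at 4 h against pair A, where 3.73% were lost. In the KO against pair B Ldhd and Pdk2 were gained, where 0.302% of all genes were gained, and none was lost, where 2.81% of all genes were lost. In KO replicate 1 the Pdk2 peak lay inside the gene Samd14, 4602 bp from Pdk2, and the Ldhd peak lay inside Znrf1, 2725 bp from Ldhd. These were weak peaks, with KO folds of 4.77 and 4.54 for Pdk2 and of 3.47 and 2.89 for Ldhd, the last at rank 10410 of 10633.

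**Figure D5:**
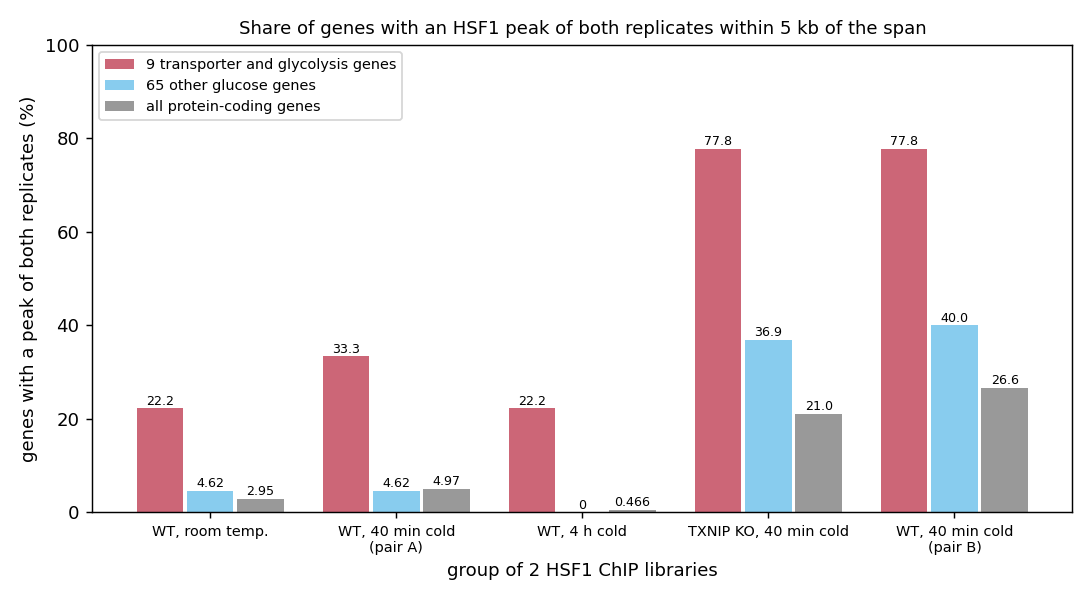
Share of genes with an HSF1 peak of both replicates within 5 kb of the gene span, for the 9 genes, the 65 further glucose genes and all 21887 protein-coding genes, in each group of 2 libraries. The 9 genes stand at 77.8% in the KO and in pair B, where the shares of all genes are 21.0% and 26.6%. The 9 genes and the list were chosen with earlier results of these data known.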

How the data were processed

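The data are 10 HSF1 ChIP-seq peak lists from mouse brown adipose tissue, 1 per ChIP library. Per the labels' protocols, 2-step fixation used 2 mM DSG (25 min) followed by 0.8% formaldehyde (12 min), and the antibody was Cell Signaling 4356. The submitters' processing notes name MACS2 2.2.7.1, BWA 0.7.17, Trim Galore 0.6.0, SAMtools and deepTools 3.4.3, and the build GRCm38.p6 (mm10). Which input served as control, and any filters, are steps not given in the sources used here. Peaks were called per library by the authors, who deposited, for each peak, a summit, a linear fold ratio at the summit over local background, and the −log10 of its p-value and q-value.

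Only peaks on the numbered chromosomes, X and Y entered, positions are 1-based, and overlaps needed at least 1 bp. Genes, starts and promoters came from RefSeq tables of the same build. All 9 genes and all 65 list genes matched by symbol. A gene was called in a group when both replicates had a peak in its window, and a gained region was called in both libraries of the group named first and in neither of its control (lost, the reverse). The genes named outside the 9 were, by rule, the 10 list genes with the best worse rank in a group, the 5 genes most alike to the gene called in most libraries, and genes overlapping a region. The members and lists were chosen with earlier results of these data known, and the placing of shared regions was added after seeing the data. Shares of peaks were compared by exact permutation over libraries, which sets the difference of group means against those of relabelled libraries. The lists compared differ in length, and differences between libraries may be technical. The overlap functions were tested on simulated data. Python 3.11.15, pandas 2.3.3, NumPy 2.4.6, SciPy 1.17.1 and matplotlib 3.10.9 were used.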

Additional observations from a re-analysis of the deposited data

How the results depend on the processing

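Of 176 recalculated values, 145 stayed on the same side or within 1.5 times, 29 moved and 2 reversed. With −log10 q of at least 5, the count of called genes was 1 at room temperature and 2 in pair A, Slc2a1 dropping out of both groups. Among the strongest peaks of equal lists the count was 1 in each group for pair A against room temperature, and 0 in every group for both 4 h comparisons. Gained regions with equal lists were 0 for pair A against room temperature and for 4 h against pair A, and lost regions were 0 for 4 h against pair A and for the KO comparison. Lost regions in the KO were also 0 with −log10 q of at least 5. With pair A as control, 10 regions were gained and 1 lost in the KO (beside the shares of all regions given above). The lost region, at Slc2a1, was not called in pair B either. The KO difference in share of peaks, 0.0143 percentage points higher, was -0.000825 with the gene span alone and -0.0422 with pair A as control. For the 65 genes, a summit within 1000 bp of a gene end left 0 genes at room temperature, 0 in pair A, 11 in the KO and 15 in pair B. Leaving out each library in turn gave 1 to 3 gained and 0 to 1 lost for pair A against room temperature, 0 to 1 and 0 to 1 for 4 h against room temperature, 1 to 2 and 1 to 3 for 4 h against pair A, and 0 to 2 and 1 to 6 for the KO comparison. No paired analysis was possible because the groups hold peak lists without counts, and the gained and lost calls come from no fitted test. The labels also do not say that a replicate number marks a shared animal or day. Merging only the 4 libraries compared, chosen after seeing the data, changed none of these counts. Depth is unknown in all libraries.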

Other observations

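Mlxipl and Mlx encode the partners of a glucose-sensing transcription factor (ChREBP and MLX) that is known to raise glycolytic and lipogenic genes. Mlx held a peak inside the gene in 6 libraries, with folds of 18.3 and 17.8 in the KO against 19.5 and 28.2 in pair B, and 4.83 and 6.96 in pair A. Mlxipl had a peak near the end of the gene (summit 135137442 on chromosome 5 in replicate 1 of pair B), with folds of 11.6 and 9.88 in the KO against 21.1 and 19.9 in pair B. A further peak inside the gene (summit 135114061 in the same library) had folds of 11.4 and 13.0 in the KO against 9.56 and 14.9 in pair B. In 4 h replicate 1, which held 123 peaks, 4 lay in Mlxipl, with folds of 14.0, 8.73, 14.0 and 28.5. Of these 4, 3 were called in no other library and 1 in replicate 1 of pair A, and 4 h replicate 2 had no peak at Mlxipl. The same library held the Pgk1 peak with a fold of 31.7. What sets these peaks of 4 h replicate 1 apart was not tested.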
